A study of Mus musculus with 5 samples.

Results

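The IL-1 family genes examined here were Il1a, Il1b, Il18 and Il33 (ligands), Il1rn and Il18bp (soluble inhibitors), and Il1r1, Il1rap, Il1rl1 and Il1r2 (receptors). The genes were chosen by name, and every probe that carried one of these names was taken, which gave 21 probes of 56605 on the array and 10 genes of 37074 gene names. The data come from 5 1-colour Agilent arrays for mouse genes, each with RNA of 1 condition. The conditions were liver sinusoidal endothelial cells (LSECs) from mouse liver, tumor endothelial cells (TECs) from HAK1B, Hepa1-6 and KYN2 tumors in the liver, and cultured Hepa1-6 cells. The labels give the strain C57BL/6 for LSECs and for all 3 TECs and C57L for cultured Hepa1-6 cells, none of them with a treatment or a gene change. The methods list female 6-week-old C57BL/6 mice and athymic BALB/c nu/nu mice, which have few T cells, without saying in the parts read here which mice carried which line. HAK1B and KYN2, written HAK-1B and KYN-2 in the methods, were established from human hepatomas, whereas Hepa1-6 comes from a mouse hepatoma. The methods' paragraphs on the arrays name Huh-7 where the labels name HAK1B. TECs were taken from digested tumors with magnetic beads against CD31, which is also found on some leukocytes, and the methods give a general group size for animal experiments without saying, in the parts read here, how many mice gave the RNA of an array.

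The IL-1 family starts and limits inflammation. IL-1α and IL-1β signal through IL-1R1 and the shared chain IL-1RAcP, which recruit MyD88 and IRAK kinases and switch on NF-κB. The antagonist IL-1Ra, made from Il1rn, blocks IL-1R1, and the decoy receptor IL-1R2, made from Il1r2, binds IL-1 without signalling. IL-33 signals through ST2, made from Il1rl1, and IL-18 is held back by IL-18BP. In the liver, macrophages are a main source of IL-1β and IL-18, and endothelial cells respond to IL-1 with chemokines and adhesion molecules.

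The probes below are those that give a second reading of the genes with the clearest differences between TECs and LSECs, and they are printed in full in lower case, 5′ to 3′, as the array's design has them. The coordinates are those of the design, in mm9. The Il1b probe lies on the minus strand at chr2:129190880-129190939 and the Il18bp probe on the minus strand at chr7:109164573-109164632. The Il1rn probe lies on the plus strand at chr2:24205094-24205153. The Il1r2 and Il33 probes have 60 bases but span 2948 and 2268 bases of the plus strand, at chr1:40168971-40171918 and chr19:30024240-30026507, so each crosses an exon junction. No mm9 annotation was used here, so no exon number is given.
Il1b probe: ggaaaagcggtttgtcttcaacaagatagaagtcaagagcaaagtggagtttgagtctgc
Il1rn probe: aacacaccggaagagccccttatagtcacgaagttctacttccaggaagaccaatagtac
Il1r2 probe: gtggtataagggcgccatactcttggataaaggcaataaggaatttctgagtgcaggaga
Il18bp probe: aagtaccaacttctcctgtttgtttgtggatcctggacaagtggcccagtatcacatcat
Il33 probe: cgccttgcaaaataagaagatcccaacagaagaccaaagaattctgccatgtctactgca

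The 250 bases before the start of Il1b, Il1r2 and Il1rn are shown because these were the genes called higher in at least 1 TEC, from RefSeq on GRCm38.p6. All 10 genes were matched by symbol, with 15 start windows. Capitals mark matches to any of 5 motifs: NF-κB (by name), AP-1 (TGANTCA), C/EBP (TTNCNNAA) and PU.1 (GAGGAA) on both strands, and TATAAA on the strand of the gene. The Il1b window is chr2:129371140-129371389 on the minus strand and overlaps in part the span annotated for the gene. The Il1r2 window is chr1:40085843-40086092 on the plus strand. The Il1rn window is that of the second of its 3 starts, chr2:24345041-24345290 on the plus strand. The Il1r2 and Il1rn windows each lie inside the span annotated for their gene.
Il1b upstream: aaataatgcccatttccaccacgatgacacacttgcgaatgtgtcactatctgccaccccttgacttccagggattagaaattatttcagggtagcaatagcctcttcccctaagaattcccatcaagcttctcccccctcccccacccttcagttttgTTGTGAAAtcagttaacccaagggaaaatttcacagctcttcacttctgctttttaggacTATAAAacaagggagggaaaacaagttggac
Il1r2 upstream: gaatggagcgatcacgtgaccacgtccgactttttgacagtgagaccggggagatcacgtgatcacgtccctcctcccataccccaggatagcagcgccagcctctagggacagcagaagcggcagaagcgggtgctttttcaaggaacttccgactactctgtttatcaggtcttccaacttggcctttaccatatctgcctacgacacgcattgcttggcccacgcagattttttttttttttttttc
Il1rn upstream: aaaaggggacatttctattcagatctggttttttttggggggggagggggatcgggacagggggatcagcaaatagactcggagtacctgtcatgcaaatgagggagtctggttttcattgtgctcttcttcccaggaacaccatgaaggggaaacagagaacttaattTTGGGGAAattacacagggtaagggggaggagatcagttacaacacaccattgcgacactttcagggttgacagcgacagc

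The Il1b window held TATAAA from 31 to 26 bases before the start and a C/EBP match from 91 to 84 bases before it. The Il1rn window held 1 C/EBP match, from 81 to 74 bases before the start, and the first of the 3 Il1rn windows held an AP-1 match from 141 to 135 bases before its start. The Il1r2 window held none of the letters searched. TATAAA was also in the Il1a window, from 32 to 27 bases before the start, and in both Il33 windows, from 203 to 198 and from 29 to 24 bases before their starts. The Il1a window held an AP-1 match as well, from 12 to 6 bases before the start, and the second Il1r1 window held the only NF-κB match of the 15 windows, from 232 to 223 bases before its start. Of 32851 windows of the same length over all genes, 7.59% held TATAAA, 36.8% the C/EBP letters, 6.75% the AP-1 letters, 23.3% the PU.1 letters and 7.25% the NF-κB motif. A match is a run of letters and no measurement of binding.

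All values below are log2 signals, that is log2 of the background-subtracted intensity after quantile normalization over the 5 arrays, and a ratio is the difference of log2 signals between 2 arrays. Probes differ in brightness, so the brightest probe of a gene is only the one it was read at, and the order of signals between genes is not an order of transcript levels. The rule of size of the methods asks for a linear ratio of 1.5 or more and a Z-score of 2 or more to call a probe higher, or 0.66 or less and -2 or less to call it lower, and a gene was called when 1 of its probes was. In practice the Z-score set the limit. A call against LSEC took a rise of 7.14-fold or a drop of 6.83-fold in HAK1B TEC, of 12-fold or 10.3-fold in Hepa1-6 TEC, and of 6.76-fold or 6.74-fold in KYN2 TEC. There was no replicate of any condition, so no difference between 2 arrays has a test, and the SD given for the 3 TECs is the spread between tumors of 3 different lines. Repeated spots of a probe varied by a median of 2.62% to 3.08% (coefficient of variation) on the same array, which leaves out the spread between animals, and precision is limited by having 1 array a condition. Probes well above background made up 44.6% to 78.1% of an array, with the highest share on the Hepa1-6 TEC array. One slide carried the 3 TEC arrays, and LSEC and the cultured cells were each on a different slide, so effects of slide and of group cannot be told apart between them.

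Il1r2 and Il1rn, the decoy receptor and the receptor antagonist of IL-1, were called higher in all 3 TECs. No member was called lower in all 3. Of all genes tested, 0.592% were called higher and 1.17% lower in all 3 TECs. These comparisons share 1 LSEC array. Against LSEC, 4 of the 10 genes were called in HAK1B TEC (Il1b, Il1r2 and Il1rn higher, Il33 lower) beside 7.95% of all genes tested, 2 in Hepa1-6 TEC beside 7.4% and 2 in KYN2 TEC beside 7.81%. The median log2 ratio over the brightest probes of the 10 genes was 1.06 in HAK1B TEC, -0.79 in Hepa1-6 TEC and -0.62 in KYN2 TEC, where the medians of all genes tested lay between -0.04 and 0.07.

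**Figure D1:**
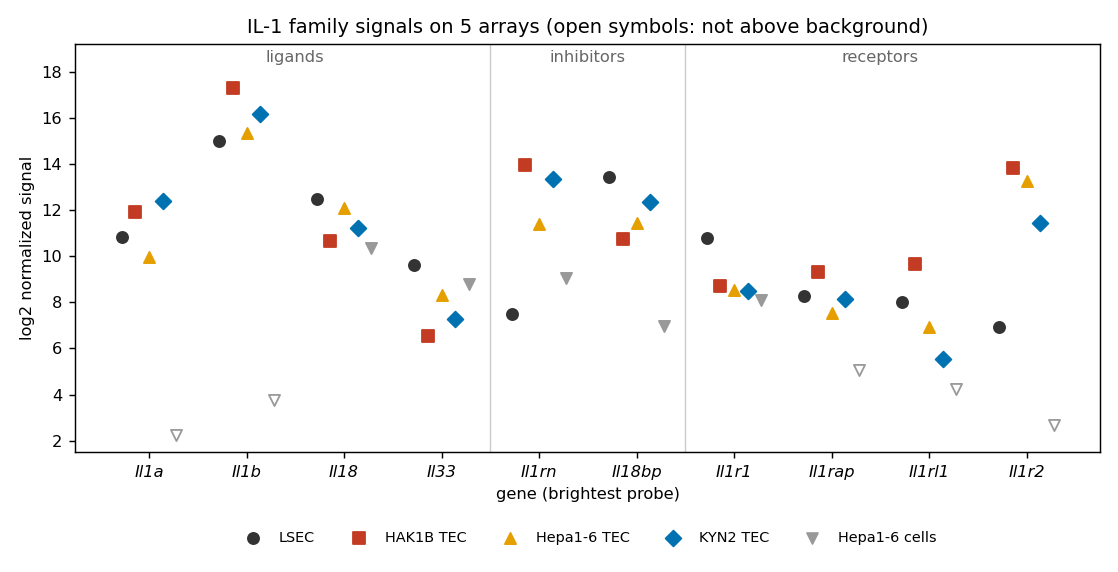
Log2 normalized signal of the brightest probe of each gene (vertical axis) on the 5 arrays, 1 point for each array, with open symbols where the probe was not well above background. Il1r2 and Il1rn stand apart between LSEC and the TECs, at 6.94 against 11.42 to 13.84 and at 7.51 against 11.40 to 13.94.

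Il1b, which encodes IL-1β, was higher in each TEC than in LSEC at its brightest probe. The log2 signal of this probe was 14.97 in LSEC, 17.30 in HAK1B TEC, 15.34 in Hepa1-6 TEC and 16.18 in KYN2 TEC, and 3.76, not well above background, in cultured Hepa1-6 cells. The TECs were above LSEC by 5.01-fold, 1.29-fold and 2.31-fold. The probe printed above gave 13.10 in LSEC, 16.40 in HAK1B TEC, 13.65 in Hepa1-6 TEC and 15.00 in KYN2 TEC, and with 9.85-fold it was the probe by which Il1b was called in HAK1B TEC. Another probe, designed on an Ensembl transcript, gave 10.84, 12.45, 9.83 and 10.97, so that it was lower in Hepa1-6 TEC than in LSEC, by 2.01-fold. The mean log2 ratio of the 3 TECs was 1.30 ± 0.98 (SD, n = 3) by the brightest probe, 1.92 ± 1.37 by the printed probe and 0.24 ± 1.31 by the Ensembl probe, and the order HAK1B, KYN2, Hepa1-6 held at all 3 probes. The call rests on 1 of 3 probes and on 1 TEC, and with another background correction (normexp) Il1b was also called higher in KYN2 TEC.

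Il1a, which encodes the IL-1 that cells release when damaged, did not move one way. The log2 signal of its single probe was 10.83 in LSEC, 11.91 in HAK1B TEC, 9.98 in Hepa1-6 TEC and 12.39 in KYN2 TEC, and 2.23, not well above background, in cultured Hepa1-6 cells. KYN2 TEC was the highest array for Il1a, whereas HAK1B TEC was the highest for Il1b. The mean log2 ratio of the TECs was 0.60 ± 1.28 (SD, n = 3), and the gene was called in none of the TECs.

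Il18 and Il33 were lower in each TEC than in LSEC. The Il18 probe gave 12.47 in LSEC, 10.65 in HAK1B TEC, 12.08 in Hepa1-6 TEC, 11.22 in KYN2 TEC and 10.34 in cultured Hepa1-6 cells. The mean log2 ratio of the TECs was -1.15 ± 0.72 (SD, n = 3), from 1.31-fold lower in Hepa1-6 TEC to 3.52-fold lower in HAK1B TEC, and the gene was not called. Il33, an alarmin kept in the nucleus, gave 9.60 in LSEC, 6.52 in HAK1B TEC, 8.32 in Hepa1-6 TEC, 7.27 in KYN2 TEC and 8.78 in cultured Hepa1-6 cells. Its mean log2 ratio was -2.23 ± 0.90, and with 8.44-fold it was called lower in HAK1B TEC only. The junction probe of Il33 lay close to background, with 5.59 in LSEC, 5.34 in Hepa1-6 TEC and 4.93 in KYN2 TEC, and it was not well above background in HAK1B TEC, where it was at least 2.49-fold lower than in LSEC. The junction probe was not called in HAK1B TEC, so the call of Il33 also rests on 1 probe and 1 TEC. With normexp, and with either of the other filters on flags (signal well above background on both arrays, or no filter), Il33 was called lower in KYN2 TEC as well.

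Il1rn had the second largest mean ratio of the 10 genes. The log2 signal of its brightest probe was 7.51 in LSEC, 13.94 in HAK1B TEC, 11.40 in Hepa1-6 TEC, 13.34 in KYN2 TEC and 9.04 in cultured Hepa1-6 cells. All 3 TECs lay above LSEC and above the cultured cells, by 86.2-fold, 14.8-fold and 56.8-fold against LSEC, with a mean log2 ratio of 5.38 ± 1.33 (SD, n = 3). The printed Il1rn probe gave 10.05, 8.19 and 9.71 in HAK1B, Hepa1-6 and KYN2 TECs and was not well above background in LSEC. It was at least 41.5-fold, 11.4-fold and 32.7-fold higher in these TECs and at least 24.9-fold higher in their mean, where the LSEC value was replaced by the dimmest signal on that array that was flagged as well above background. Both probes were called in all 3 TECs.

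Il18bp fell short of the rule in every TEC but was lower in all 3 at both probes. The brightest probe gave 13.44 in LSEC, 10.74 in HAK1B TEC, 11.42 in Hepa1-6 TEC, 12.35 in KYN2 TEC and 6.98 in cultured Hepa1-6 cells. The printed probe followed with 13.02, 10.31, 10.73, 11.98 and 7.03. The mean log2 ratios of the TECs were -1.93 ± 0.81 and -2.01 ± 0.87 (SD, n = 3), and the largest difference, 6.56-fold in HAK1B TEC, was just under the limit of 6.83-fold. In the deposited value table and with either of the other filters on flags, it was called lower in HAK1B TEC, and with normexp in both HAK1B and Hepa1-6 TECs. The 2 soluble inhibitors of the family thus differed from LSEC in opposite directions, Il1rn by a mean log2 ratio of 5.38 and Il18bp by -1.93.

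Il1r2 had the largest mean ratio. Its brightest probe gave 6.94 in LSEC, 13.84 in HAK1B TEC, 13.26 in Hepa1-6 TEC and 11.42 in KYN2 TEC, and 2.67, not well above background, in cultured Hepa1-6 cells. The TECs lay 120-fold, 80.1-fold and 22.3-fold above LSEC, with a mean log2 ratio of 5.90 ± 1.27 (SD, n = 3). The junction probe gave 11.68, 10.44 and 9.24 in the same TECs and was not well above background in LSEC or in cultured cells, so that it was at least 128-fold, 54.3-fold and 23.6-fold higher in the TECs than in LSEC. The order HAK1B, Hepa1-6, KYN2 was the same at both probes.

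Il1r1, the receptor that carries the IL-1 signal, was lower in the TECs by nearly the same amount in each. Its probe gave 10.80 in LSEC, 8.69 in HAK1B TEC, 8.55 in Hepa1-6 TEC, 8.50 in KYN2 TEC and 8.11 in cultured Hepa1-6 cells. The mean log2 ratio was -2.22 ± 0.10 (SD, n = 3), or 4.33-fold, 4.77-fold and 4.94-fold lower, which was under the limit of the rule in each TEC. The 3 TECs spanned 0.19 at this probe, where the median span was 0.90 over the 27827 probes well above background on the LSEC and TEC arrays and 1.96 over the 13 such probes of the members. With normexp, Il1r1 was called lower in all 3 TECs, and with signal well above background asked for on both arrays in KYN2 TEC.

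Il1rap and Il1rl1 differed between the TECs more than they differed from LSEC on average. The array has probes for several transcripts of each gene, among them the soluble forms. The probe for transcript variant 1 of Il1rap gave 8.28 in LSEC, 9.33 in HAK1B TEC, 7.56 in Hepa1-6 TEC and 8.14 in KYN2 TEC and was not well above background in cultured cells. That for variant 2 gave 5.64, 6.79 and 3.99 in LSEC, HAK1B TEC and Hepa1-6 TEC. In KYN2 TEC it was not well above background, although its signal there, 4.695, was above that in Hepa1-6 TEC. The dimmest signal flagged as well above background was 2.85 in Hepa1-6 TEC and 4.65 in KYN2 TEC. The probe for variant 4 was well above background in HAK1B TEC alone, at 4.61. The last Il1rap probe, on an Ensembl transcript, was not well above background on any of the 5 arrays. The mean log2 ratio to LSEC by the brightest probe was 0.06 ± 0.90 (SD, n = 3).

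For Il1rl1, the brightest of 2 probes for transcript variant 1 (the membrane receptor ST2) gave 8.02 in LSEC, 9.64 in HAK1B TEC, 6.93 in Hepa1-6 TEC and 5.53 in KYN2 TEC and was not well above background in cultured cells. The other variant 1 probe and the probe for variant 2 (soluble ST2) were well above background in HAK1B TEC alone. The mean log2 ratio to LSEC was -0.65 ± 2.09 (SD, n = 3), the largest SD of the 10 genes, and the 3 TECs spanned 4.11 against a 95th percentile of 2.71 over the same 27827 probes. With either of the other filters on flags, Il1rl1 was called lower in KYN2 TEC.

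**Figure D2:**
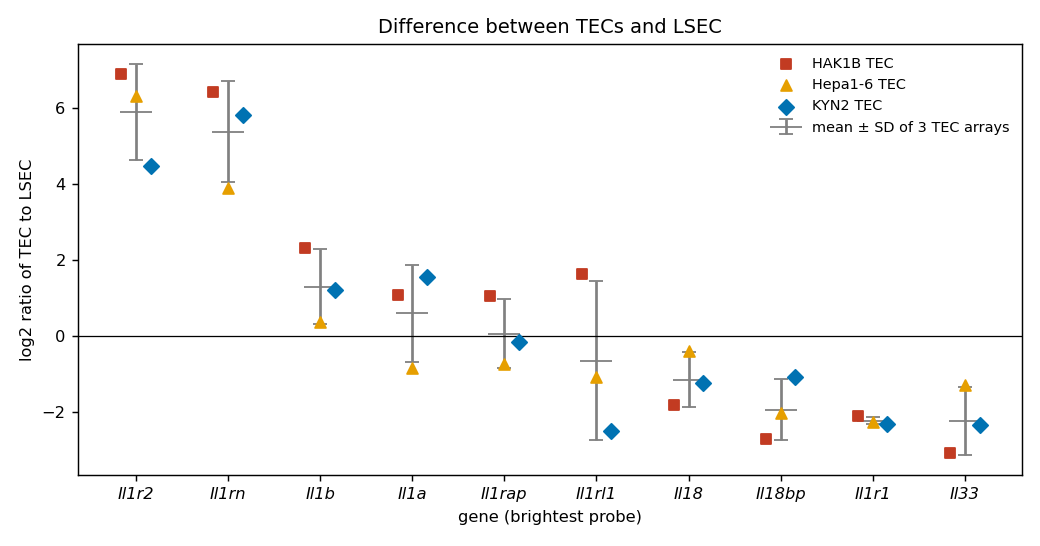
Log2 ratio of each TEC to LSEC at the brightest probe of each gene (points) with the mean and SD of the 3 TEC arrays (bar and whiskers), ordered by the mean. Il1r2 and Il1rn lie above 3.88 in every TEC, Il1r1 has an SD of 0.10, and Il1a, Il1rap and Il1rl1 have TECs on both sides of 0.

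**Figure D3:**
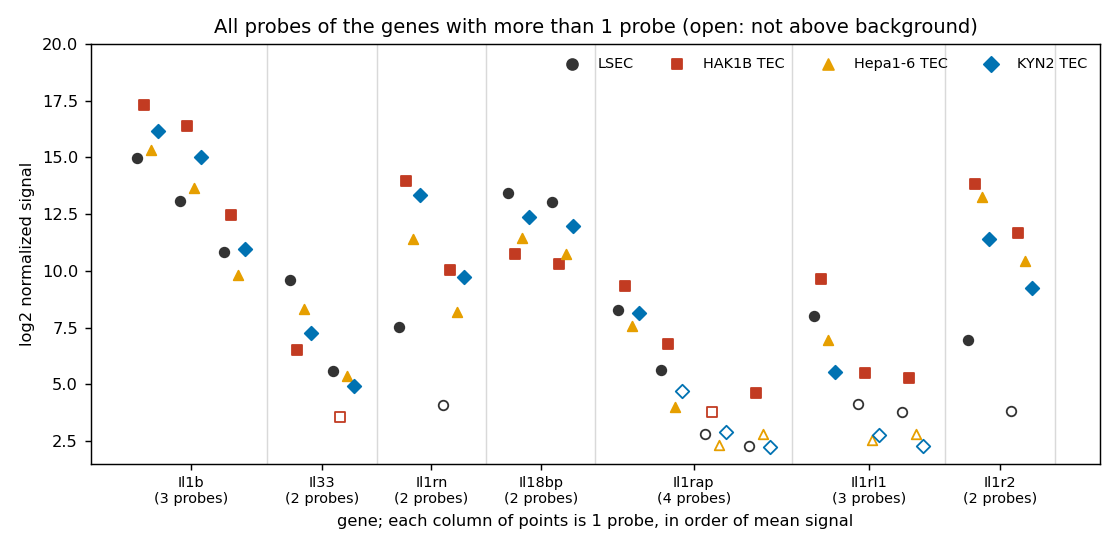
Log2 normalized signal of every probe of the 7 genes with more than 1 probe, on the LSEC and TEC arrays, with 1 column of points for each probe and open symbols where it was not well above background. At both Il1r2 and both Il1rn probes the 3 TECs lie above LSEC, and at both Il18bp probes they lie below it.

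In a limma fit of the 3 TECs against the single LSEC array, which is assumed to vary like the TECs, 0 of 45645 probes passed an adjusted p of 0.05, and the lowest adjusted p was 0.465. At an unadjusted p under 0.05 there were 3764 probes, or 8.25% of those tested. Of the 20 member probes tested, 5 were among them, namely both of Il1r2, both of Il1rn and that of Il1r1, with adjusted p from 0.465 to 0.469 by limma. The fit had 2 residual degrees of freedom.

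The TECs were also compared with each other, within 1 slide. Between KYN2 and HAK1B TECs, both from human lines, 3 of the 10 genes were called, and all were lower in KYN2 TEC, beside 3.61% of all genes tested. These were Il1rl1 (17.3-fold at its brightest probe), Il1r2 (5.37-fold at its brightest probe) and Il1rap (at least 4.26-fold at the probe for variant 2). The Il1rap probe for variant 1 was 2.28-fold lower in KYN2 TEC, which was not called. At the other 2 Il1rl1 probes, which were dim, the difference was at least 1.78-fold and at least 1.53-fold. No member was called between Hepa1-6 and HAK1B TECs, beside 7.51% of all genes tested, or between KYN2 and Hepa1-6 TECs, beside 7.26%. A drop of 3.91-fold was enough for a call in KYN2 TEC against HAK1B TEC, whereas it took a drop of 8.52-fold in Hepa1-6 TEC against HAK1B TEC and of 8.66-fold in KYN2 TEC against Hepa1-6 TEC.

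Cultured Hepa1-6 cells gave the level of the family in tumor cells without other cell types. Of the 21 probes, 6 were well above background there, and they belonged to Il18, Il33, Il1rn, Il18bp and Il1r1, whereas LSEC had 15, HAK1B TEC 19, Hepa1-6 TEC 17 and KYN2 TEC 16. Of all probes on the array, 44.6%, 54.1%, 57.6%, 78.1% and 54.7% were well above background in the same order. Against LSEC, Il1a, Il1b and Il18bp were called lower in the cultured cells, beside 5.05% of all genes tested. Il1b was at least 516-fold lower at its brightest probe, Il1a at least 29.2-fold lower and Il18bp 87.8-fold lower. At the brightest probes, Hepa1-6 TEC lay above the cultured cells for Il1b by at least 665-fold and for Il1r2 by at least 157-fold. For Il1a it was at least 16.2-fold and for Il18bp 21.7-fold. These 4 genes were called, beside 5.28% of all genes tested. The other Il1b probes gave at least 14.6-fold and at least 206-fold, and the Il1r2 junction probe at least 22.3-fold. The printed Il18bp probe, at 13.0-fold, was not called. Il33 had 8.78 in the cultured cells and 8.32, 7.27 and 6.52 in Hepa1-6, KYN2 and HAK1B TECs. Il1r1 had 8.11 in the cultured cells and 8.55, 8.50 and 8.69 in the same TECs. Of the TECs, Hepa1-6 TEC was the nearest to the cultured cells for Il33 and KYN2 TEC for Il1r1. For Il1r1 the log2 ratio of KYN2 TEC to Hepa1-6 TEC was only -0.05, between single arrays. The part of tumor cells in the TEC signals was not tested. In bulk samples such as these, fewer cells of a type and less RNA per cell cannot be told apart.

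Of the other ligands and receptors of the family, 11 genes were measured, of which 3 were well above background in LSEC, 6 in HAK1B TEC, 8 in Hepa1-6 TEC, 3 in KYN2 TEC and 2 in cultured cells. Il1f9 (IL-36γ) was called higher in HAK1B TEC at 7.26 and Il18rap, the second chain of the IL-18 receptor, at 7.29, and neither was well above background in LSEC. Il1rapl1 was called higher in Hepa1-6 TEC alone, at 6.54. No gene of this list was called in KYN2 TEC or called lower in any TEC. The shares of all genes tested that were called in HAK1B, Hepa1-6 and KYN2 TECs were 7.95%, 7.4% and 7.81%. Sigirr, an inhibitory receptor of the family, had 10.10 in LSEC, 9.73 in HAK1B TEC, 11.45 in Hepa1-6 TEC, 9.89 in KYN2 TEC and 13.06 in cultured cells. Sigirr was not called, nor were Il1rl2 (the IL-36 receptor) and Il18r1.

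Genes that process IL-1 and carry its signal changed little by the rule of size. Among 16 inflammasome and protease genes, Mefv (pyrin) was called higher in HAK1B TEC (36.8-fold) and, by another of its probes, in KYN2 TEC (6.69-fold at the brightest probe), and no gene was called lower in a TEC. The medians of the list were 0.62, 0.20 and 0.23 in HAK1B, Hepa1-6 and KYN2 TECs, with 10, 9 and 9 of the 16 ratios above 0. Differences under the limits of the rule went both ways, with larger rises than drops. Prtn3 was 6.59-fold, 6.52-fold and 3.19-fold higher in these TECs, and Nlrp3 6.45-fold, 1.05-fold and 5.41-fold. Pycard was 4.08-fold, 4.43-fold and 2.52-fold higher. Casp1, the largest drop of the list in each TEC, was 2.37-fold, 2.78-fold and 2.21-fold lower. The genes read at the brightest probes of the list, Nlrp1a, Capn2 and Casp4, were not called. Of 20 genes of IL-1 receptor signalling, among them Rela, Tab2 and Mapk14, 0 were called in any TEC in either direction, and the medians were 0.27, -0.18 and -0.07.

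Of 16 genes known to be induced by IL-1, Ptgs2 (the prostaglandin synthase COX-2) was called higher in all 3 TECs, by 52.8-fold in HAK1B TEC, 13.6-fold in Hepa1-6 TEC and 39.8-fold in KYN2 TEC. Its log2 signal was 8.64 in LSEC and 14.37, 12.41 and 13.96 in these TECs. Csf3 (G-CSF) was called higher in HAK1B and KYN2 TECs and Steap4 in HAK1B TEC, both from LSEC values not well above background, and none was called lower in a TEC. Nfkbia, Cxcl1 and Tnfaip3, read at the 3 brightest probes of the list, were not called in a TEC. The medians were 0.85, -0.12 and 1.15. Beside these calls, 3.53%, 5.06% and 4.35% of all genes tested were called higher in HAK1B, Hepa1-6 and KYN2 TECs.

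**Figure D4:**
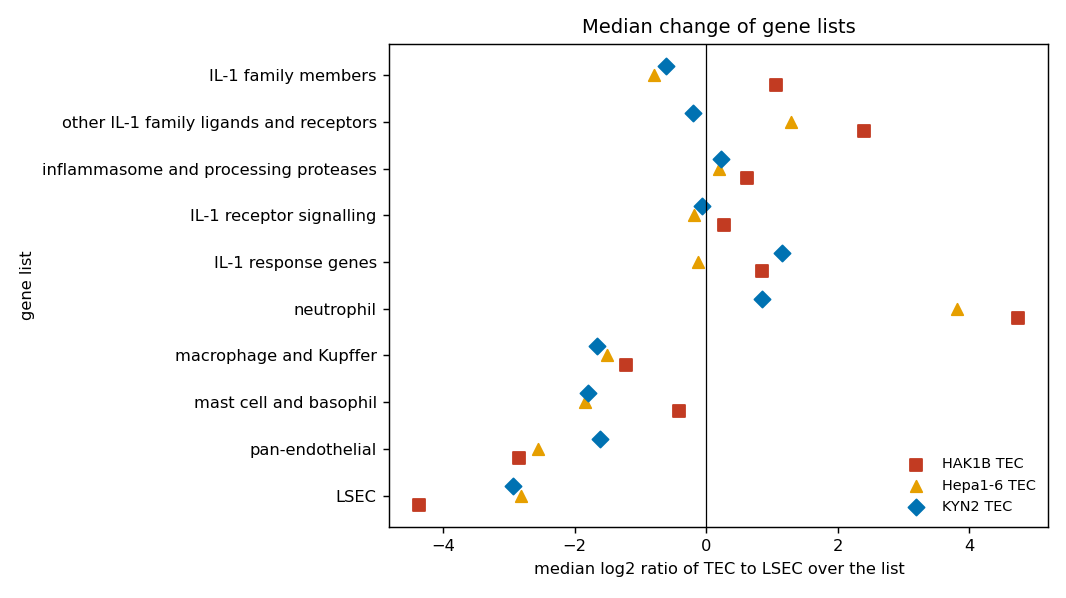
Median log2 ratio of each TEC to LSEC (horizontal axis) over the genes of 10 lists, 1 point for each TEC, each gene read at its brightest probe. The neutrophil list lies at 4.75, 3.81 and 0.84 in HAK1B, Hepa1-6 and KYN2 TECs, and the IL-1 receptor signalling list lies within 0.27 of 0.

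Markers of other cell types were read on the same arrays. Of 15 neutrophil markers, 9 were well above background in LSEC, 15 in HAK1B TEC, 15 in Hepa1-6 TEC and 12 in KYN2 TEC, and 12, 8 and 2 were called higher in the TECs in that order. The shares of all genes tested that were called higher in these TECs were 3.53%, 5.06% and 4.35%. Il1r2 had the order of TECs of the marker counts, whose limits differ between TECs, and of the list's medians (4.75, 3.81 and 0.84). Il1b and Il1rn had the order HAK1B, KYN2, Hepa1-6 at their brightest probes, which was also the order of the list's summed level. The summed linear level of the list was 94516 in LSEC, 216363 in HAK1B TEC, 81955 in Hepa1-6 TEC and 86906 in KYN2 TEC, with Csf3r at 16.45 in LSEC and S100a9 at 16.46 in HAK1B TEC. In cultured Hepa1-6 cells the sum was 39190, with 2 markers well above background, Csf3r at 15.22 and Ly6g at 9.74. Ly6g was called higher there than in LSEC. Csf3r was the brightest marker in LSEC, Hepa1-6 TEC, KYN2 TEC and cultured cells, so these sums are not a level of neutrophils alone. In KYN2 TEC, the 2 markers called higher were Mmp8 (26.5-fold) and Mmp9 (12.50, and not well above background in LSEC), S100a8 was 3.07-fold higher without a call, Wfdc21 was called lower, and the 3 markers not well above background were Ly6g, Ngp and Stfa2l1.

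All 14 macrophage and Kupffer cell markers were well above background in LSEC and in the 3 TECs, among them Cd5l at 17.47, Lyz2 at 17.45 and Csf1r at 17.36 in LSEC, and 3 were in cultured cells. Their summed level was 1035425 in LSEC, 863449 in HAK1B TEC, 513134 in Hepa1-6 TEC and 588767 in KYN2 TEC, against 1711 in cultured cells, and the list's median log2 ratios were -1.21, -1.51 and -1.66. Of this list 6 genes were called lower in HAK1B TEC (Clec4f, Vsig4, Timd4, Cd5l, Marco and Cd163), 0 in Hepa1-6 TEC and 3 in KYN2 TEC (Cd5l, Marco and Cd163). The shares of all genes tested that were called lower in HAK1B, Hepa1-6 and KYN2 TECs were 4.43%, 2.37% and 3.48%. Ratios above 0 numbered 7, 2 and 2 of the 14 in these TECs. Most of the list thus lay below LSEC in Hepa1-6 and KYN2 TECs. Only Cd68 (log2 ratios of 0.85, 0.12 and 1.25) and Lyz2 (0.83, 0.02 and 0.40) were above 0 in all 3 TECs, without a call. Il1b and Il1a were not well above background in cultured cells, and both Il18bp probes were well above it there but far below the other 4 arrays, at 6.98 and 7.03.

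The 13 pan-endothelial markers were well above background on the same 4 arrays, but their summed level was 467949 in LSEC and 70821, 72007 and 138108 in HAK1B, Hepa1-6 and KYN2 TECs, and that of 13 LSEC markers was 974433 against 171757, 138824 and 273292. The median log2 ratios of the pan-endothelial list were -2.84, -2.56 and -1.62, beside the -2.11, -2.26 and -2.31 of Il1r1. For Il1rl1, known on mast cells and some lymphocytes, the summed level of 10 mast cell and basophil markers was 17472 in LSEC, 12118 in HAK1B TEC, 5338 in Hepa1-6 TEC and 8030 in KYN2 TEC. Hdc was the brightest of them on these arrays, at 12.93, 13.07, 11.77 and 12.39, so the sum mostly follows the brightest markers. Cpa3, Ms4a2, Tpsb2, Cma1 and Mcpt4 had the order HAK1B, Hepa1-6, KYN2, as Il1rl1 had at its brightest probe. Kit, Fcer1a, Mcpt8, Hdc and Gata2 had other orders. T cell, natural killer and innate lymphoid markers summed to 6920 in LSEC and 13812, 37419 and 16106 in the TECs. Gzma was the brightest of these markers in Hepa1-6 TEC, at 14.85 against 9.35 in LSEC. The median log2 ratios of this list were 0.70, 0.21 and 0.70, so the sum is not a level of lymphoid cells as a whole. The part of any of these cell types in the levels of the members was not tested.

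Lastly, the genes with the most similar pattern over the 5 arrays were found by the root mean square (RMS) difference of log2 signals centred on their mean, among 28725 probes well above background on at least 4 arrays. For Il1b these were Cxcl2, a neutrophil-attracting chemokine (RMS 0.30), Tyrobp and Vav1. For Il1rn they were Spp1, which encodes osteopontin (RMS 0.28), Vegfa (RMS 0.49) and Nfil3, and for Il1r2 they were Itgax, Ccl12 and F10 (RMS from 0.68 to 0.80). Il1rl1 was nearest to Il4 (RMS 0.41), Cyth4 and Ms4a8a, and Il1a to Marcksl1 (RMS 0.32), Gde1 and Lxn. Il1r1 had the nearest neighbours, Gm12216 (RMS 0.09), 4933405E24Rik and Map3k8. The others were Klf9, Mylk and Zfp933 for Il18, Myo18a, Myo10 and Zfp507 for Il33, Plxna2, Cnrip1 and a probe with no gene symbol for Il18bp, and Adrbk2, Vps13c and Sh3bp2 for Il1rap. With 5 arrays and so many probes, near neighbours are found for most patterns, and the likeness is a description.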

How the data were processed

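Gene expression was measured on 5 Agilent mouse arrays, 1 for each condition. Per the labels, RNA was isolated with TRIzol and labelled cRNA was made with a Low Input Quick Amp kit, whereas the methods name another kit for extraction. The authors scanned the arrays and read them with Agilent Feature Extraction (9.5.1.1 in the submitters' processing notes, 10.7.1.1 in the file headers). The deposited intensity (gProcessedSignal) is linear and background-subtracted, without normalization between arrays, and flags of 0 or 1 mark spots well above background. The deposited value table holds linear intensity values normalized by the authors, with a median of 5.43 on the log2 scale on every array.

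Control spots were left out, spots of 1 probe were averaged, and the 5 arrays were quantile normalized together after log2 transformation. A probe entered a comparison if either array had it well above background, and the rule of size of the methods was applied, with lincRNA probes kept in. For the Z-score, log2 ratios were centred on the mean and divided by the SD of all probes in the comparison. A gene was called when 1 probe was called, and its level was read at the probe with the highest mean signal. limma 3.58.1 in R 4.3.3 (two-sided, Benjamini-Hochberg over all probes tested) was fitted to the 3 TECs and LSEC. The remaining work was done in Python 3.11.15 with pandas 2.3.3 and numpy 2.4.6. The scripts were tested on simulated data.

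The members and the gene lists were chosen with earlier results of these data known, and the lists were written by hand. The genes named are all members, the genes of the pathway lists that were called in a TEC, the 3 genes of a list read at the brightest probes, and the 3 genes most alike for each member. The neutrophil markers named for KYN2 TEC and cultured cells were chosen after their values were seen. So were Pycard, Casp1, Prtn3, Nlrp3, Cd68, Gzma, the mast cell and basophil markers named for their order, and the macrophage and Kupffer cell markers named as called. T cell, natural killer and innate lymphoid markers, B cell, stellate cell and fibroblast, hepatocyte and housekeeping lists were also read. Hepatocyte markers had median log2 ratios of -3.87, 0.22 and -2.18 in HAK1B, Hepa1-6 and KYN2 TECs, stellate cell and fibroblast markers 0.30, 1.39 and 1.24, B cell markers 0.46, -1.09 and 0.33, lymphoid markers 0.70, 0.21 and 0.70, and housekeeping genes -0.01, 0.04 and -0.18. Alternatives were another normalization, background correction, source of values, filter, probe and Z-score rule, and each TEC left out. MicroRNA arrays and arrays of treated tumors were not analysed here.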

Additional observations from a re-analysis of the deposited data

Results flagged for a closer look

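Members whose TECs lay on both sides of LSEC were noted, since the effect of a tumor line then differed in sign. Il1a had a log2 ratio to LSEC of 1.08 in HAK1B TEC, -0.85 in Hepa1-6 TEC and 1.56 in KYN2 TEC. Il1rap had 1.05 in HAK1B TEC, -0.73 in Hepa1-6 TEC and -0.14 in KYN2 TEC. Il1rl1 had 1.62 in HAK1B TEC, -1.09 in Hepa1-6 TEC and -2.49 in KYN2 TEC. With 1 array per line the difference between lines was not tested, and none of these ratios passed the rule of size.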

How the results depend on the processing

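Il1r2 and Il1rn were called higher in all 3 TECs under each alternative tried, and leaving out 1 TEC at a time, chosen after seeing the data, gave 2 genes higher and 0 lower for each TEC left out. Leaving out 4460 lincRNA probes, also chosen after seeing the data, left each count as it was. Against LSEC, normexp background correction raised the count from 2 to 4 in Hepa1-6 TEC, from 2 to 5 in KYN2 TEC and from 0 to 1 (Il1r1) for genes lower in all 3 TECs. Asking for signal well above background on both arrays gave 5 genes in KYN2 TEC and 1 in cultured Hepa1-6 cells, where 3 were called, and no filter on flags gave 4 in KYN2 TEC. Without the Z-score, the ratio alone called 10 genes in HAK1B TEC, 9 in Hepa1-6 TEC, 10 in KYN2 TEC and 10 in cultured cells, and 3 genes (Il18bp, Il1r1 and Il33) were lower in all 3 TECs. The cause of these changes was not tested. The mean log2 ratios of the TECs moved by no more than 1 SD in 79 of 80 alternative values. The exception was Il1r1 at -2.02 with normexp, and no called member changed sign. The mean of Il1rap ranged from -0.44 to 0.45 and that of Il1rl1 from -1.79 to 0.27 with 1 TEC left out, so neither has a settled sign. Scaling to the 75th percentile moved the median of all probes in Hepa1-6 TEC to 0.44 and changed none of the member counts by more than 1.5 times. In limma, 0 member probes passed the adjusted p under every alternative, with 3 to 6 member genes at an unadjusted p under 0.05 and a lowest adjusted p over all probes from 0.0632 to 0.988. The planned fit with slide as a block was not run, since no slide held both LSEC and TECs. No paired analysis was possible because no group held more than 1 array. Probes near background on 1 array give only limits of a fold.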
